A study of Homo sapiens with 9 samples.

Results

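The proteasome subunits and regulators described here are the genes whose symbol starts with PSMA, PSMB, PSMC, PSMD, PSME, PSMF or PSMG, 50 of the 19775 genes that a single-gene probe set of the array names. The annotation pairs 97 probe sets with them, and of a gene's probe sets the one brightest on average over all 9 arrays was used, so no difference between groups entered the choice. Of the 50 genes, 42 encode subunits, activators, an inhibitor or assembly chaperones of the proteasome. The other 8 match by symbol only: PSMC3IP and PSME3IP1 encode other proteins, and PSMA3-AS1, PSMB8-AS1, PSMD6-AS2, PSMG3-AS1, PSMD7-DT and PSMD14-DT are transcripts named for a neighbouring gene. A mean above 10.6 signal units was needed for testing. It was reached by 47 of the 50 genes, among them 41 of the 42 proteasome genes, and not by PSMA8, PSMD7-DT and PSMD14-DT. PSMA8, a testis-specific alpha subunit, read between 1.29 and 17.9 over the 9 arrays. Subunits without a single-gene probe set were not analysed here.

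The proteasome degrades proteins that carry ubiquitin chains. Its 20S core is a stack of alpha rings, which gate the entrance, and beta rings, which hold the protease sites, and the 19S cap binds, deubiquitinates and unfolds substrates with a ring of ATPases, a base and a lid. Dedicated chaperones build the core and the cap, other activators can replace the cap, and interferon-induced beta subunits replace the constitutive catalytic ones in the immunoproteasome, whose peptides are presented on class I molecules.

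MCF10A is a human breast epithelial cell line, immortalized but not tumorigenic, that needs EGF for growth. It was profiled on 9 Affymetrix arrays in 3 groups of 3. The group labelled ERBB2 was infected with pBabe carrying ERBB2, a receptor tyrosine kinase, the EGF group carried the empty pBabe virus and received EGF at 50 ng/ml for 2 h before harvest, and the vector group carried the empty virus alone. All 3 groups shared the same medium after infection, with 2% horse serum and no EGF, after maintenance with 5% horse serum and 20 ng/ml EGF together with hydrocortisone, cholera toxin and insulin. The labels call the replicates biological without naming separate infections, and do not say whether the infected cells were a pool or a clone, so the spread behind each p-value is that between these arrays and may be technical.

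The label of the ERBB2 group was checked first. The brightest of 3 ERBB2 probe sets read 98.8 ± 23.1 in arrays labelled ERBB2, 104 ± 23.3 in EGF arrays and 174 ± 48.0 in vector arrays (SD, n = 3 each), a log2 change of -0.71 (limma adjusted p = 0.006756). A dim ERBB2 probe set read 35.6 ± 2.51, 15.4 ± 1.19 and 12.6 ± 8.78 in the same order of groups (log2 change 0.89 in arrays labelled ERBB2, limma adjusted p = 0.008824), and the other ERBB2 probe set gave 0.10 (adjusted p = 0.8236). Since the brightest probe set goes against the label, the text writes of arrays labelled ERBB2. Some RNA controls also moved with this group. The 5'/3' ratio of the ACTB control was 0.737 ± 0.0513 in arrays labelled ERBB2, 0.444 ± 0.0634 in EGF arrays and 0.379 ± 0.0553 in vector arrays. The 3' control for 18S RNA averaged 12590, 2868 and 3380 in the same order. The 5' control for 18S RNA averaged 15870, 9266 and 13310, with EGF arrays lowest. The 5'/3' ratio of the GAPDH control overlapped between groups, at 0.869 ± 0.0318, 0.812 ± 0.0452 and 0.847 ± 0.0340. Of 9 basal mammary markers listed, 5 were tested, and KRT5, KRT14, ITGB4 and EGFR were called lower in arrays labelled ERBB2 against vector, KRT14 by a log2 change of -4.00. The 5 markers summed to between 8708 and 9307, against 13340 to 15940 with EGF and 17840 to 20370 in vector arrays. Fibroblast markers summed to 391.7 to 543.4, 498.9 to 544.7 and 1358 to 1500 in the same order, mostly from DCN, with LUM and PDGFRA too dim to test. Of 6 blood and endothelial markers, CD79A and PECAM1 were bright enough to test, and they went opposite ways in arrays labelled ERBB2 against vector. PECAM1 was called higher (log2 change 1.27) and CD79A lower (limma adjusted p = 0.001909). CD79A averaged 6.58 in arrays labelled ERBB2, under the limit for testing, and 33.1 in vector arrays, and no size is read from its difference. The list summed to 119.2 to 131.6, 67.8 to 97.1 and 83.0 to 110.2. The part of these differences in the results below was not tested, and in RNA of a whole culture fewer cells of a type and less RNA per cell cannot be told apart.

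Against vector, proteasome genes were mostly higher in arrays labelled ERBB2. Of the 41 tested, 23 were called higher and 5 lower at a Benjamini-Hochberg adjusted p under 0.05 over all 32768 probe sets, and their median log2 change was 0.35. PSMD14, the deubiquitinase of the 19S lid, led with 1.15, and PSME1, a subunit of the 11S activator, was lowest with -0.59. Over all 13723 genes tested, 20.8% were called higher and 25.1% lower, with a median of -0.07, and over the 4273 genes with a mean signal of 256 or more the shares were 35.3% and 35.1%. Of all 47 members tested, 25 were called higher and 8 lower, or 53.2% and 17%. Over 20 alternative settings the 41 genes gave between 22 and 26 higher calls and between 3 and 5 lower calls, with medians from 0.21, with averaged probe sets, to 0.44, with equal array medians.

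With EGF for 2 h, 18 of the 41 genes were called higher and 5 lower against vector, and the median log2 change was 0.13. PSME3, an activator of the nuclear proteasome, had the largest positive change with 0.85, and PSME1 again the lowest with -0.62. Of all genes tested, 17.2% were called higher and 19% lower, with a median of -0.10. Among genes with a signal of 256 or more the shares were 33.8% and 26.5%, and of all 47 members 38.3% and 17%. The members called lower include PSMG3-AS1, whose EGF signals all lay under the limit for testing. The counts depend on the scaling: with the array medians made equal, 29 of the 41 genes were called higher and 1 lower, with a median of 0.42. That scaling moved the median of all probe sets to 0.11, against -0.11 as deposited, and the share of all calls that were higher to 78%, against 44.8%. It gave 7322 higher and 2067 lower calls among all 32768 probe sets. Relative to the median of all probe sets, the median of the 47 members was 0.28 with equal medians and 0.20 as deposited. Both comparisons use the same 3 vector arrays, so their values are set side by side and are not independent.

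**Figure D1:**
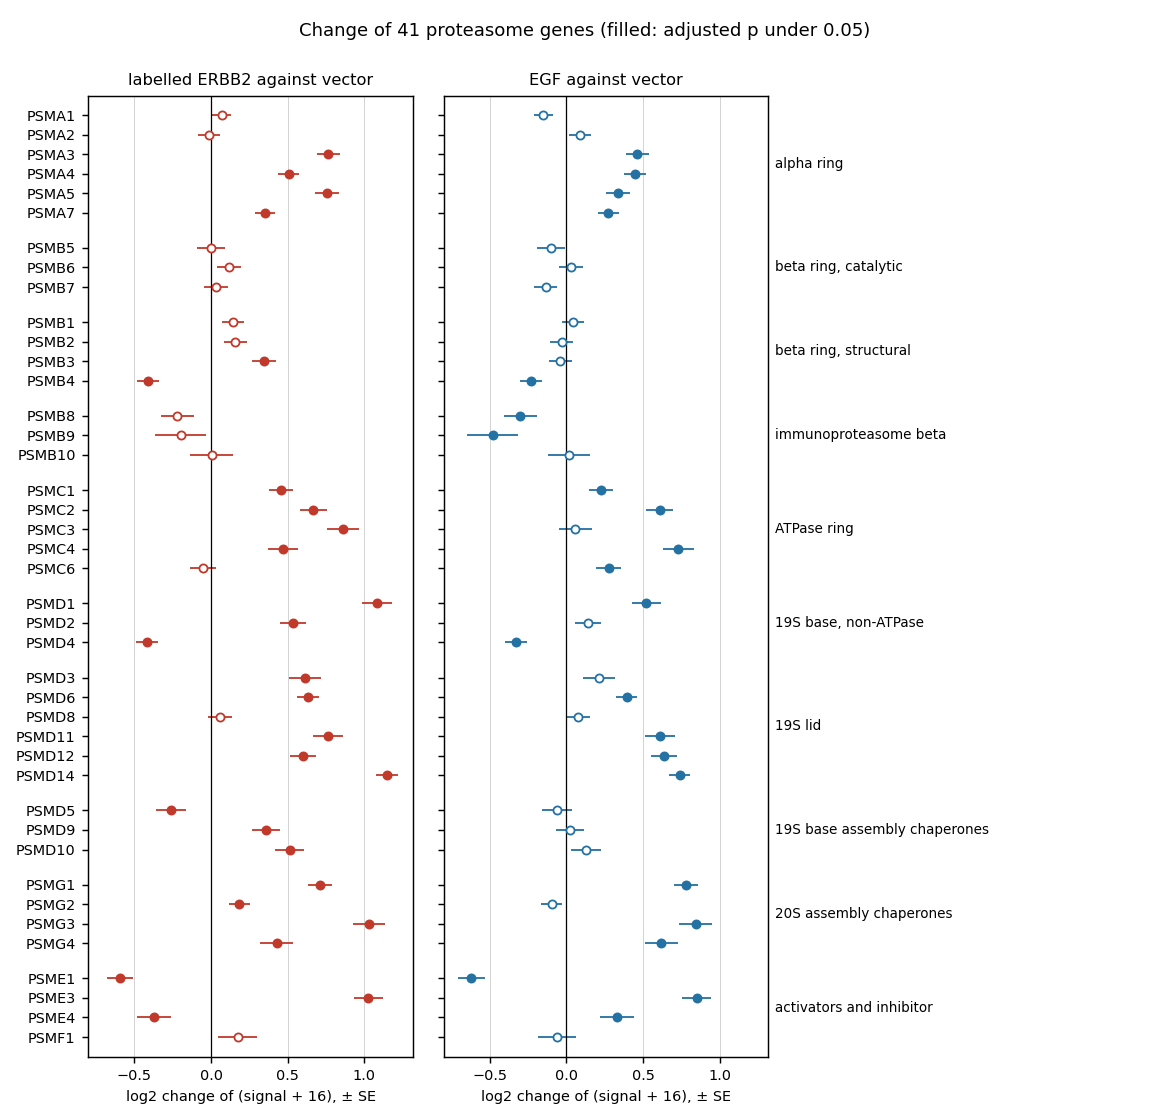
Log2 change of signal + 16 against vector for the 41 proteasome genes tested, with arrays labelled ERBB2 in the left panel and EGF in the right, points with SE bars from limma, n = 3 arrays a group, filled where the adjusted p was under 0.05. The lid, the ATPase ring and the 20S assembly chaperones lie mostly right of 0 in both panels, the catalytic beta subunits lie near 0, and PSME1, PSMB4 and PSMD4 lie left of 0, of which PSMB4 with EGF changes sign when array medians are made equal.

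**Figure D2:**
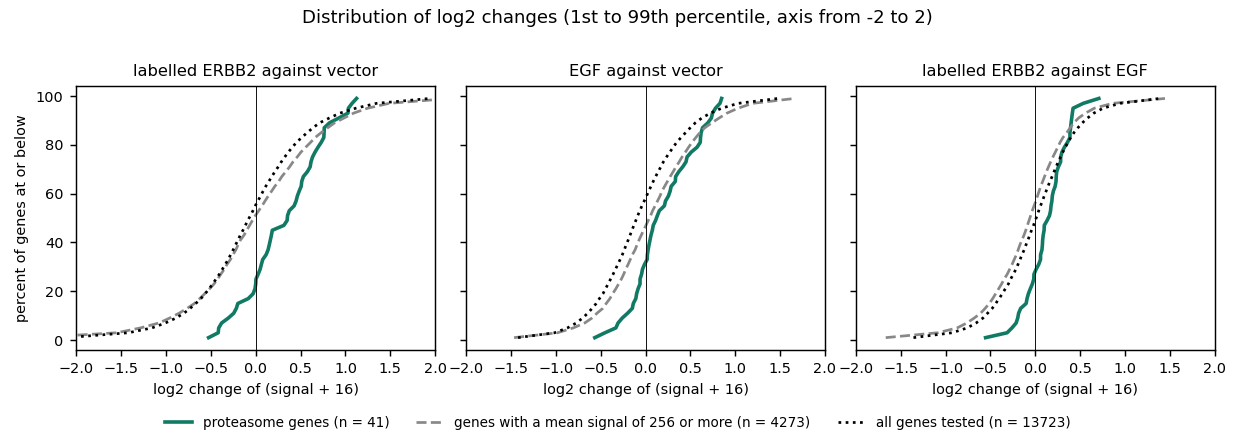
Percent of genes (vertical axis) at or below each log2 change (horizontal axis), from the 1st to the 99th percentile and drawn from -2 to 2, for the 41 proteasome genes (solid), the 4273 genes with a mean signal of 256 or more (dashed) and all 13723 genes tested (dotted). The panels show arrays labelled ERBB2 against vector (left), EGF against vector (middle) and arrays labelled ERBB2 against EGF arrays (right), with medians for the solid, dashed and dotted lines of 0.35, -0.02 and -0.07 (left), 0.13, 0.04 and -0.10 (middle) and 0.15, -0.06 and 0.01 (right) as deposited. With equal array medians the proteasome median is 0.44 (left), 0.42 (middle) and, with its sign changed, -0.06 (right).

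Promoter sequence was examined because several factors are known to act on these genes together. NFE2L1 and NFE2L2 bind the antioxidant response element, with the core TGACNNNGC, NF-Y binds the CCAAT box, ETS factors bind CCGGAAG, and MYC is among the factors that bind the E-box CACGTG. RefSeq windows of GRCh38.p14 from 250 bases before to 50 bases after the start were searched on both strands, and all 50 members matched the RefSeq gene table by symbol, with windows for 43 of them, 52 windows in all. TGACNNNGC was present in 26.9% of the members' windows and in 13.3% of all 35116 windows. CCAAT was present in 42.3% and 34.6%, CCGGAAG in 30.8% and 10.3%, and CACGTG in 9.62% and 7.26%. The members' windows include those of members that match by symbol only, such as PSME3IP1, whose windows hold CCAAT and CACGTG. Shares for the proteasome genes alone were not taken. Of proteasome genes with a window, the 17 with a CCAAT match had a median log2 change of 0.61 in arrays labelled ERBB2 against vector, with 12 called higher and none lower, and the 18 without had 0.18, with 9 and 4. The 11 with CCGGAAG had 0.43 there and the 24 without 0.41, and the 13 with TGACNNNGC had 0.36 and the 22 without 0.44. With EGF against vector, genes with and without a match had medians of 0.21 and 0.08 for CCAAT, 0.33 and 0.07 for CCGGAAG, and 0.21 and 0.13 for TGACNNNGC. A match is a description of these letters, not of a bound site, and no difference between these subsets was tested.

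Windows are printed for 5 genes that the results return to, chosen after their values were seen: the lid subunit with the largest change, a core chaperone, and the 3 activator genes analysed, which differed from each other in direction. Motif matches are in capitals. The windows are PSMD14 at chr2:161308175-161308474 on the plus strand, PSMG1 at chr21:39183402-39183701 on the minus strand, PSME3 at chr17:42833147-42833446 on the plus strand, PSME1 at chr14:24135944-24136243 on the plus strand and PSME4 at chr2:53970944-53971243 on the minus strand. Each is written 5' to 3' on the strand of its gene.
PSMD14: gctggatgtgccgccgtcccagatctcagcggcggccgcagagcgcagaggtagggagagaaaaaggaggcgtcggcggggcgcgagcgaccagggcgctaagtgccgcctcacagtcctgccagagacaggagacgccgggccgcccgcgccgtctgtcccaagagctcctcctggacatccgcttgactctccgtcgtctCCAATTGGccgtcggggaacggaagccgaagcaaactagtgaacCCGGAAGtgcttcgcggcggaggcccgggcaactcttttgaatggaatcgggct
PSMG1: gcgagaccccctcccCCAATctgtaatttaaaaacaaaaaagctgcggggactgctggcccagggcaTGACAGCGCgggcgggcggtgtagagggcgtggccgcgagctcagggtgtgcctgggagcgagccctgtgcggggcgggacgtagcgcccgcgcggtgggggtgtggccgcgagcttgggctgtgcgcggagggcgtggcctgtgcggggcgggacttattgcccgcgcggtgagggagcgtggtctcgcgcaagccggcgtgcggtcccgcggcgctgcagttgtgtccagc
PSME3: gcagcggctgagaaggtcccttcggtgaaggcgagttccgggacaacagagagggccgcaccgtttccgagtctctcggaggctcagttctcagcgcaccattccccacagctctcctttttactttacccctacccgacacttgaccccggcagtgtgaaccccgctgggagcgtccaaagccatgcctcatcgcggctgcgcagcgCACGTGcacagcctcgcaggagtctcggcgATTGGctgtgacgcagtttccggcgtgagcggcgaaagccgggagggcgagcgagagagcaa
PSME1: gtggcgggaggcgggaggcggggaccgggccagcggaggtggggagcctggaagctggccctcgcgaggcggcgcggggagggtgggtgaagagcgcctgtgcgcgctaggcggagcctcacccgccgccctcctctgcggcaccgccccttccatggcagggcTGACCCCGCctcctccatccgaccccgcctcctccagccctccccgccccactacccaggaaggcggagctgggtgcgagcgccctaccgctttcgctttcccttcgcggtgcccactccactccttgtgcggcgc
PSME4: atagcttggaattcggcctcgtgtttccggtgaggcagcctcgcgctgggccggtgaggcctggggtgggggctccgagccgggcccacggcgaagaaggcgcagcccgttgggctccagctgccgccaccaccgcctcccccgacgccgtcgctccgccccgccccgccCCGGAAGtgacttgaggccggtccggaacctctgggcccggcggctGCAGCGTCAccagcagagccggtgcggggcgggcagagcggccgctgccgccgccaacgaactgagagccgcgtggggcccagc
PSMD14 held overlapping CCAAT matches on both strands and an ETS match, PSMG1 held a CCAAT and a TGACNNNGC match, and PSME3 held a CCAAT match and the E-box. PSME1 held a TGACNNNGC match alone, and PSME4 held one with an ETS match.

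The alpha ring, which gates the core, had 4 of 6 tested subunits called higher and none lower in both comparisons with vector. Beside this and the role counts below stand the shares among genes with a signal of 256 or more. They were 35.3% higher and 35.1% lower in arrays labelled ERBB2, and 33.8% and 26.5% with EGF. No role count was tested against these shares. PSMA3 read 2162, 2477 and 2434 in arrays labelled ERBB2, 1811, 1983 and 1933 in EGF arrays, and 1334, 1421 and 1385 in vector arrays. The groups did not overlap, and its log2 changes against vector were 0.76 ± 0.08 (SE, limma adjusted p = 7.158e-08) in arrays labelled ERBB2 and 0.46 ± 0.08 (adjusted p = 7.968e-05) with EGF. PSMA5 read 1691, 1597 and 1855 in arrays labelled ERBB2, 1224, 1293 and 1308 with EGF and 987.6, 1032 and 997.6 in vector arrays, again without overlap (0.76 ± 0.08, adjusted p = 1.221e-07, and 0.34 ± 0.08, adjusted p = 0.002256). PSMA4 read 2585, 2570 and 2710 in arrays labelled ERBB2 and 2532, 2607 and 2414 with EGF, which overlapped each other and lay above the 1979, 1747 and 1803 of vector arrays (0.51 and 0.45). PSMA7 was called higher by 0.35 and 0.27, and its EGF call ended without a trend (adjusted p = 0.08545). A second PSMA7 probe set, with a mean signal of 799, gave 0.07 (adjusted p = 0.5921) in arrays labelled ERBB2 and 0.61 (adjusted p = 1.615e-05) with EGF. The brightest probe set of PSMA1 was not called, with 0.07 in arrays labelled ERBB2 and -0.15 with EGF, but its other probe sets, with mean signals of 3280 and 2304, were both called higher in arrays labelled ERBB2 (0.23, adjusted p = 0.01144, and 0.24, adjusted p = 0.01117). PSMA2 was not called, with -0.01 in arrays labelled ERBB2 and 0.09 with EGF, and the EGF change was called with equal array medians (0.39, adjusted p = 0.001668). A second PSMA3 probe set, with a mean signal of 16.6 against 1882, was called lower with EGF (-0.95, adjusted p = 0.02342). The mean of both gave PSMA3 0.09 (adjusted p = 0.6074) in arrays labelled ERBB2 and -0.24 (adjusted p = 0.1345) with EGF.

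The 3 catalytic beta subunits, which hold the protease sites, were not called in any of the 3 comparisons. PSMB5, the chymotrypsin-like subunit, averaged 1825 ± 161 in arrays labelled ERBB2, 1698 ± 83.1 with EGF and 1830 ± 231 in vector arrays (SD, n = 3 each), and the groups overlapped. PSMB6, the caspase-like subunit, averaged 1277 ± 52.5, 1204 ± 66.3 and 1177 ± 54.1 in the same order. PSMB7, the trypsin-like subunit, averaged 2369 ± 123, 2108 ± 176 and 2314 ± 90.1. Their log2 changes lay between -0.001 and 0.12 in arrays labelled ERBB2 and between -0.14 and 0.03 with EGF, with standard errors of 0.08 to 0.09, and changes of that size were not detectable. With equal array medians PSMB6 was called higher with EGF (0.33, adjusted p = 0.0115).

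Among the other beta subunits, which have no protease site, PSMB3 and PSMB4 went opposite ways in arrays labelled ERBB2. PSMB3 read 2942, 2752 and 2635 in arrays labelled ERBB2, 2007, 2172 and 2181 with EGF and 1991, 2338 and 2221 in vector arrays. Its level was above both other groups in arrays labelled ERBB2 (0.35 ± 0.08, adjusted p = 0.001024), and the EGF and vector arrays overlapped (-0.04, adjusted p = 0.7482, and 0.26, adjusted p = 0.03763, with equal array medians). PSMB4 read 3308, 3706 and 3224 in arrays labelled ERBB2, 3771, 3973 and 3829 with EGF and 4277, 4902 and 4457 in vector arrays, without overlap (-0.41 ± 0.07, adjusted p = 0.0001036, and -0.23 ± 0.07, adjusted p = 0.0185). A second bright PSMB4 probe set was called lower by -0.39 and -0.48, and a dim one, at 198 ± 13.5 in arrays labelled ERBB2 and 99.7 ± 22.2 in vector arrays, was called higher (0.91, adjusted p = 6.69e-05), so that the mean of the 3 gave PSMB4 0.04 (adjusted p = 0.7514). The EGF call of PSMB4 ended without EGF replicate 1, EGF replicate 3 or vector replicate 2 (adjusted p of 0.05268 to 0.09438), and its sign changed to 0.07 (adjusted p = 0.6475) with equal array medians. PSMB1 and PSMB2 were not called as deposited, with 0.14 and 0.16 in arrays labelled ERBB2 and 0.04 and -0.03 with EGF. With equal array medians both were called higher in arrays labelled ERBB2 (0.23, adjusted p = 0.02976, and 0.25, adjusted p = 0.03099) and with EGF (0.34, adjusted p = 0.002319, and 0.27, adjusted p = 0.02287).

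None of the 3 immunoproteasome subunits was called in arrays labelled ERBB2 against vector, while PSMB8 and PSMB9 were called lower with EGF. PSMB8 read 281.6, 254.4 and 276.4 in arrays labelled ERBB2, 267.4, 267.8 and 231.9 with EGF and 320.5, 336.4 and 297.8 in vector arrays. Vector arrays were highest without overlap, by -0.22 ± 0.11 (adjusted p = 0.1146) and -0.30 ± 0.11 (adjusted p = 0.04112). PSMB9 read 74.5, 75.3 and 63.6 in arrays labelled ERBB2, 57.9, 52.8 and 55.8 with EGF and 72.2, 95.3 and 85.3 in vector arrays, and the EGF arrays lay below both other groups (-0.48 ± 0.17, adjusted p = 0.03334). PSMB10 averaged 143 ± 27.3, 143 ± 4.21 and 141 ± 9.73 in arrays labelled ERBB2, EGF arrays and vector arrays. The PSMB8 call ended without any EGF array, vector replicate 1 or vector replicate 2 (adjusted p up to 0.1845), the PSMB9 call without any EGF array, vector replicate 2 or vector replicate 3 (up to 0.1282), and both with equal array medians (0.9492 and 0.3526). Of 12 tested genes of class I antigen processing, a list chosen for its link to these subunits, 1 was called higher and 7 lower in arrays labelled ERBB2. With EGF the counts were 1 and 8, and the medians were -0.52 and -0.41. Over all genes tested the shares were 20.8% higher and 25.1% lower in arrays labelled ERBB2, and 17.2% and 19% with EGF. Among genes with a signal of 256 or more they were 35.3% and 35.1%, and 33.8% and 26.5%. TAP2, the gene called higher in both comparisons and named after its values were seen, changed by 0.72 and 0.44. TAPBP, the tapasin of peptide loading, had log2 changes of -1.04 and -0.67, HLA-E -0.85 and -0.65, and IRF1, an interferon-response factor, -0.78 and -0.81.

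In the 19S cap the ATPase ring had 4 of 5 tested subunits called higher and none lower in each comparison with vector, and with equal array medians all 5 with EGF. Among genes with a signal of 256 or more, 35.3% were called higher in arrays labelled ERBB2 and 33.8% with EGF as deposited. With equal array medians 7322 of all 32768 probe sets were called higher with EGF. PSMC3 read 855.8, 962.1 and 892 in arrays labelled ERBB2, 480.6, 559.7 and 492.9 with EGF and 556.3, 409.1 and 514.7 in vector arrays. Arrays labelled ERBB2 stood above both other groups (0.86 ± 0.11, adjusted p = 1.786e-06), and EGF and vector arrays overlapped (0.06, adjusted p = 0.7435, and 0.35, adjusted p = 0.03197, with equal array medians). PSMC4 read 368.4, 426.8 and 396.3 in arrays labelled ERBB2, 523.9, 451.3 and 462.1 with EGF and 279.3, 278.2 and 287.8 in vector arrays, so that EGF arrays were highest (0.47 ± 0.10, adjusted p = 0.0007378, and 0.73 ± 0.10, adjusted p = 1.128e-05). PSMC2 read 1733, 1700 and 1794 in arrays labelled ERBB2, 1673, 1649 and 1693 with EGF and 1260, 1087 and 945.6 in vector arrays (0.67 and 0.61). PSMC6 read 1120, 1156 and 1142 in arrays labelled ERBB2, 1422, 1383 and 1501 with EGF and 1325, 1055 and 1185 in vector arrays, and was called with EGF (0.27 ± 0.08, adjusted p = 0.01804) and not in arrays labelled ERBB2 (-0.05, adjusted p = 0.6615), which overlapped vector arrays. PSMC1 changed by 0.46 and 0.23. The EGF calls of PSMC1 and PSMC6 ended without EGF replicate 3, vector replicate 2 or vector replicate 3 (adjusted p up to 0.1572 and 0.1069). Both also ended with quantile normalization and without a trend. For PSMC6 these settings gave an adjusted p of 0.0572 (log2 change 0.22) and 0.1205, and the adjusted p of PSMC1 reached 0.1573 over all alternatives.

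The base scaffolds PSMD1 and PSMD2 were higher and the ubiquitin receptor PSMD4 lower in arrays labelled ERBB2. PSMD1 read 1091, 1046 and 1082 in arrays labelled ERBB2, 686, 724 and 753.8 with EGF and 580.5, 484.2 and 437.7 in vector arrays. The 3 groups did not overlap (1.08 ± 0.10, adjusted p = 1.813e-08, and 0.52 ± 0.10, adjusted p = 0.0003214). PSMD2 read 1202, 1330 and 1117 in arrays labelled ERBB2, 928.8, 930.3 and 897.5 with EGF and 852.7, 862.2 and 783.7 in vector arrays, and was called in arrays labelled ERBB2 (0.53 ± 0.08, adjusted p = 2.874e-05). Its EGF change was 0.14 (adjusted p = 0.2324), and 0.44 (adjusted p = 0.002056) with equal array medians. PSMD4 read 1434, 1580 and 1520 in arrays labelled ERBB2, 1591, 1594 and 1638 with EGF and 2101, 1895 and 2083 in vector arrays, which were highest (-0.42 ± 0.07, adjusted p = 1e-04, and -0.33 ± 0.07, adjusted p = 0.001692). Its 2 other tested probe sets were also called lower in both comparisons, by -0.30 and -0.41 in arrays labelled ERBB2 and -0.32 and -0.33 with EGF. With equal array medians the EGF change of PSMD4 was -0.03 (adjusted p = 0.8534).

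The lid had 5 of 6 tested subunits called higher in arrays labelled ERBB2 and 4 with EGF, none lower, and with equal array medians all 6 with EGF. The shares called higher among genes with a signal of 256 or more were 35.3% and 33.8% as deposited. With equal array medians 7322 of all 32768 probe sets were called higher with EGF. PSMD14, which removes ubiquitin chains from substrates, read 2738, 2785 and 3014 in arrays labelled ERBB2, 2219, 2025 and 2165 with EGF and 1272, 1265 and 1281 in vector arrays. The groups were far apart relative to their spread (1.15 ± 0.07, adjusted p = 9.665e-11, and 0.74 ± 0.07, adjusted p = 1.107e-07), a fold of 2.22 in arrays labelled ERBB2 and 1.67 with EGF. PSMD11, a structural subunit, read 933.6, 998.1 and 1022 in arrays labelled ERBB2, 1011, 820.2 and 833.5 with EGF and 636.3, 578.9 and 512 in vector arrays (0.76 and 0.61). PSMD12, also structural, read 915.7, 950.1 and 869.3 in arrays labelled ERBB2, 922.8, 958.7 and 924.4 with EGF and 627.5, 619.9 and 539.4 in vector arrays (0.60 and 0.64). For both, vector arrays were lowest and the other groups overlapped. PSMD3 read 552.5, 458.8 and 450.4 in arrays labelled ERBB2, 375.1, 382.4 and 334.4 with EGF and 303.9, 303.6 and 329.1 in vector arrays, and was called in arrays labelled ERBB2 (0.61 ± 0.10, adjusted p = 8.435e-05). Its EGF change was 0.21 (adjusted p = 0.1484), and 0.50 (adjusted p = 0.002064) with equal array medians. PSMD6 changed by 0.63 and 0.39, and PSMD8 was not called in either comparison (0.06 and 0.08).

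**Figure D3:**
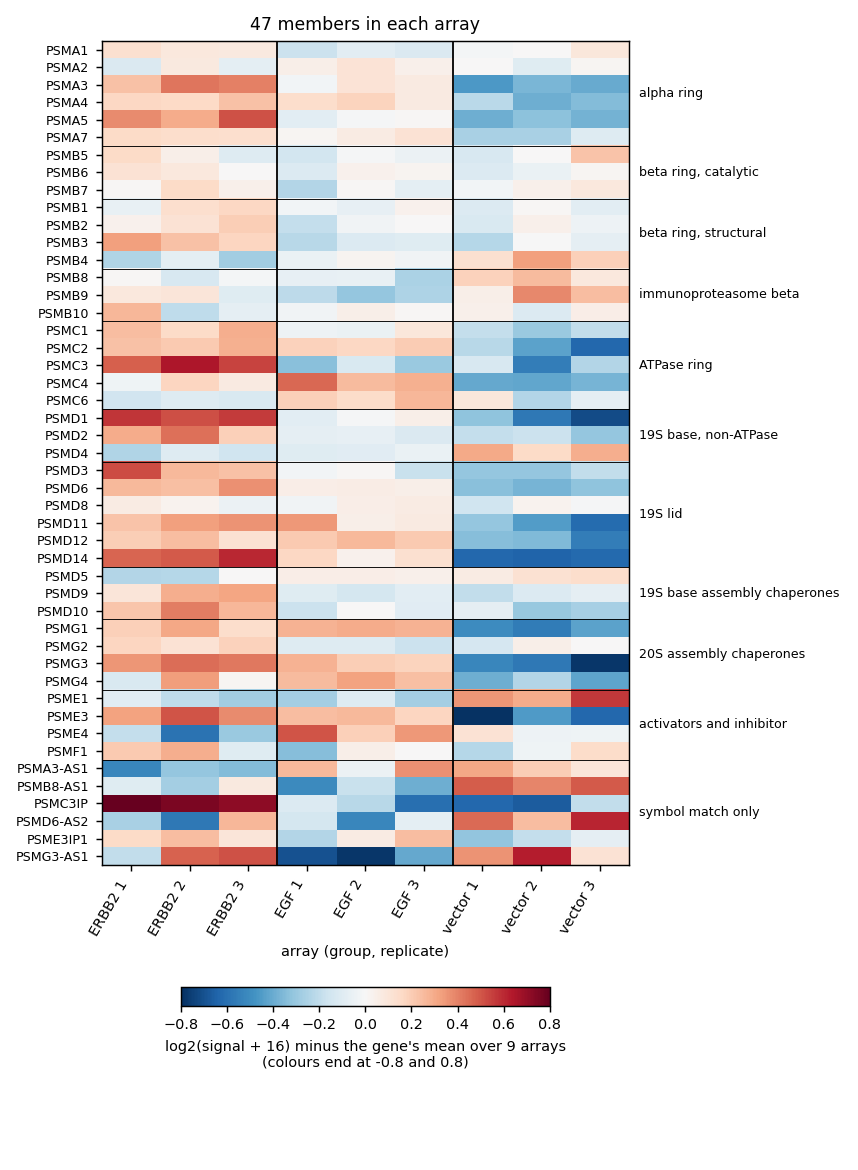
Log2(signal + 16) of each of the 47 members tested (rows, by role) in each of the 9 arrays (columns, by group and replicate), as the difference from the gene's mean over the 9 arrays, with colours ending at -0.8 and 0.8. The vector columns are blue and the columns labelled ERBB2 red for most of the alpha ring, ATPase ring, lid and 20S chaperones, and PSME1, PSMB4 and PSMD4 show the opposite colours.

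The chaperones that build the core, PSMG1 to PSMG4, were all called higher in arrays labelled ERBB2 and 3 of 4 with EGF. The shares called higher among genes with a signal of 256 or more were 35.3% and 33.8%. PSMG1 and PSMG2 work as a pair on the alpha ring, as do PSMG3 and PSMG4. PSMG1 read 1255, 1369 and 1214 in arrays labelled ERBB2, 1334, 1354 and 1333 with EGF and 770.8, 742 and 811.2 in vector arrays. Vector arrays were lowest and the other groups overlapped (0.71 ± 0.08, adjusted p = 3.168e-07, and 0.78 ± 0.08, adjusted p = 1.967e-07). PSMG3 read 379.2, 406.5 and 398.1 in arrays labelled ERBB2, 358.6, 339 and 334.2 with EGF and 199.1, 192.1 and 164.4 in vector arrays (1.03 ± 0.10, adjusted p = 1.276e-07, and 0.84 ± 0.10, adjusted p = 3.9e-06). PSMG4 changed by 0.43 and 0.62, the first of which was not called with averaged probe sets (0.36, adjusted p = 0.07886). PSMG2 read 2687, 2585 and 2709 in arrays labelled ERBB2, 2220, 2219 and 2115 with EGF and 2172, 2462 and 2391 in vector arrays. It was the partner of PSMG1 yet lay highest in arrays labelled ERBB2 with a small change (0.18 ± 0.07, adjusted p = 0.04155) and was not called with EGF (-0.10, adjusted p = 0.3312). The PSMG2 call ended without ERBB2 replicate 1 or 3, vector replicate 1 or 3, or EGF replicate 2 (adjusted p up to 0.1722).

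The chaperones of the 19S base, PSMD5, PSMD9 and PSMD10, were called in arrays labelled ERBB2 and not with EGF. PSMD10, also known as gankyrin, read 624.1, 714.5 and 645.1 in arrays labelled ERBB2, 470.8, 535.2 and 500.7 with EGF and 505.5, 429.7 and 441.7 in vector arrays. PSMD9 read 540.1, 620.8 and 630.9 in arrays labelled ERBB2, 471.4, 457.1 and 474.7 with EGF and 437.5, 466.9 and 478.9 in vector arrays. For both, arrays labelled ERBB2 were highest and the EGF and vector arrays overlapped, with log2 changes in arrays labelled ERBB2 of 0.51 ± 0.10 (adjusted p = 0.0002225) and 0.36 ± 0.09 (adjusted p = 0.003755), and with EGF of 0.13 and 0.02. With averaged probe sets the PSMD9 change in arrays labelled ERBB2 was 0.19 (adjusted p = 0.09556), and its second probe set gave 0.03 (adjusted p = 0.9301). With equal array medians both were called higher with EGF (0.42, adjusted p = 0.006922, and 0.31, adjusted p = 0.02776). PSMD5 averaged 310 ± 31.6 in arrays labelled ERBB2, 358 ± 2.05 with EGF and 374 ± 10.8 in vector arrays, a change of -0.26 (adjusted p = 0.04444) that no longer passed when any array other than ERBB2 replicate 3 was left out (adjusted p of 0.05197 to 0.1336).

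The activators of the core differed from each other in direction. PSME3, which forms the nuclear activator, read 807.4, 917.2 and 841 in arrays labelled ERBB2, 765.5, 772.4 and 726 with EGF and 364.3, 465.1 and 409.6 in vector arrays. Vector arrays were lowest without overlap (1.03 ± 0.10, adjusted p = 3.653e-08, and 0.85 ± 0.10, adjusted p = 1.015e-06), and its 3 other probe sets were called higher too, by 0.88 to 1.71 in arrays labelled ERBB2 and 0.63 to 1.34 with EGF. PSME1, a subunit of the interferon-induced 11S activator, read 1390, 1285 and 1220 in arrays labelled ERBB2, 1227, 1377 and 1225 with EGF and 1900, 1822 and 2197 in vector arrays. Here vector arrays were highest and the other groups overlapped (-0.59 ± 0.09, adjusted p = 1.113e-05, and -0.62 ± 0.09, adjusted p = 1.285e-05). PSME4, which encodes the activator PA200, read 476.9, 357.9 and 442.1 in arrays labelled ERBB2, 779.2, 626.2 and 698.4 with EGF and 594.1, 531 and 532 in vector arrays. It was the member called in opposite directions against vector, with -0.37 ± 0.11 (adjusted p = 0.01052) in arrays labelled ERBB2 and 0.33 ± 0.11 (adjusted p = 0.02792) with EGF. The first call ended with equal array medians (-0.28, adjusted p = 0.056), without a trend (adjusted p = 0.06808), with averaged probe sets (-0.24, adjusted p = 0.05334) and without ERBB2 replicate 2 (-0.26, adjusted p = 0.07866). The second ended under 8 of 20 alternatives: with no filter, quantile normalization, no trend or averaged probe sets (adjusted p of 0.05309, 0.07036, 0.1225 and 0.2483), and without EGF replicate 1, EGF replicate 3, vector replicate 2 or vector replicate 3 (0.26 to 0.33, adjusted p of 0.07112 to 0.1389). The other PSME4 probe sets gave 0.26 (not called) and -0.62 (adjusted p = 0.0003383) in arrays labelled ERBB2, and 0.23 and -0.10, both not called, with EGF. PSMF1, the inhibitor PI31, was not called (0.17 and -0.06), and its groups overlapped. A second PSMF1 probe set of like mean signal was called lower in arrays labelled ERBB2 (-0.35, adjusted p = 0.01387).

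**Figure D4:**
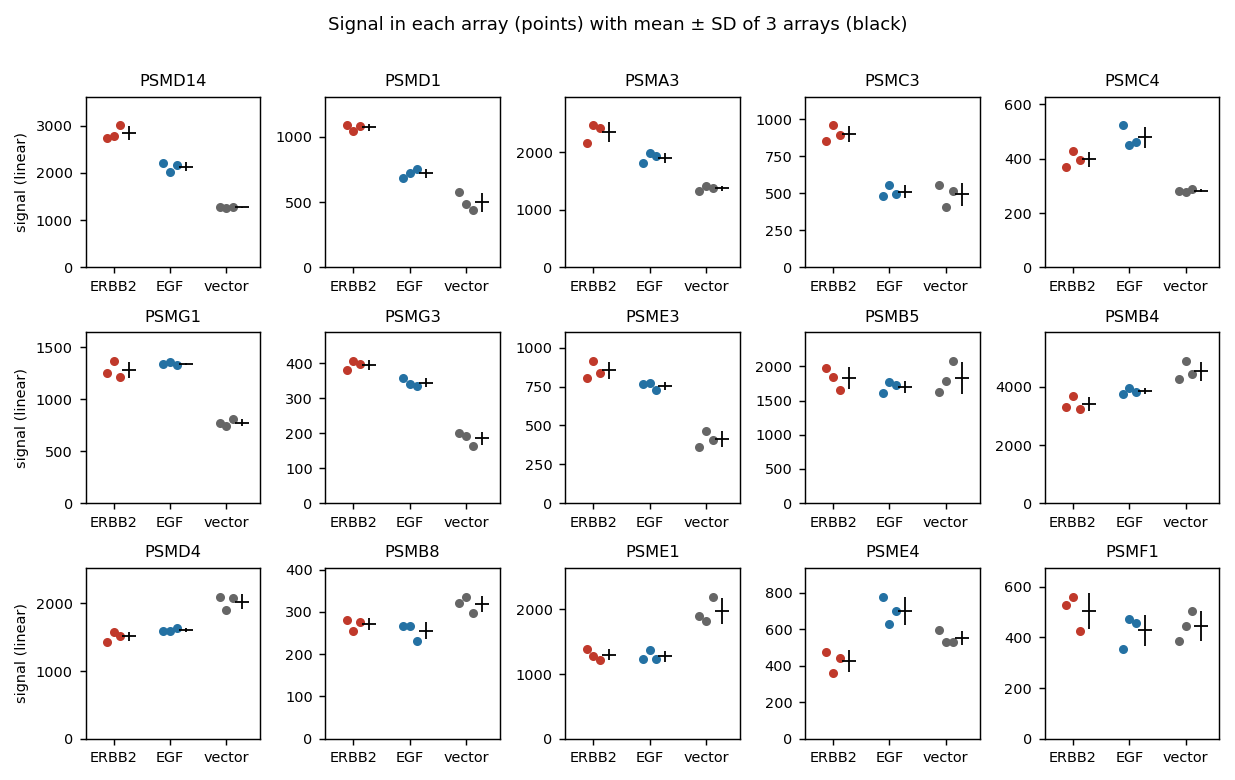
Linear signal of 15 members in each array (points), with the mean and SD of 3 arrays (black), for arrays labelled ERBB2, EGF arrays and vector arrays from left to right, each axis starting at 0. PSMD14, PSMD1 and PSMA3 step down over the 3 groups, PSMC3 stands apart in arrays labelled ERBB2, PSMC4 and PSME4 are highest with EGF, PSMB5 and PSMF1 overlap, and PSMD4, PSMB4, PSMB8 and PSME1 are highest in vector arrays.

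Set directly against EGF arrays, arrays labelled ERBB2 had 14 of the 41 proteasome genes called higher and 2 lower as deposited, with a median of 0.15, but 2 higher and 9 lower with a median of -0.06 when array medians were made equal. With equal array medians 2085 of all 32768 probe sets were called higher and 6701 lower, so the surplus of lower calls was not particular to proteasome genes. Over all genes tested 12.8% were called higher and 16.1% lower as deposited, with a median of 0.01, and among genes with a signal of 256 or more 19.5% and 30.3%. Of all 47 members, 16 were called higher and 3 lower, or 34% and 6.38%. The members called higher include PSMG3-AS1, whose EGF signals all lay under the limit for testing. That gene was tested only through its level in the other groups, and no size is read from its difference. The same scaling moved the median of all probe sets to -0.13, against 0.03 as deposited, and the share of all calls that were higher to 23.7%, against 48.7%. Relative to that median the median of the 47 members was 0.07 with equal medians and 0.12 as deposited. Quantile normalization left the 47 members with 17 higher calls, 3 lower calls and a median of 0.16, near the values as deposited. Among the proteasome genes, PSMC3, PSMD1, PSME4 and PSMC6 were called in the same direction as deposited and with equal array medians. PSMC3 was higher in arrays labelled ERBB2 by 0.80 ± 0.11 (adjusted p = 1.15e-05) and PSMD1 by 0.56 ± 0.10 (adjusted p = 0.0001853). PSME4 was lower by -0.70 ± 0.11 (adjusted p = 7.198e-05), a second PSME4 probe set by -0.52 (adjusted p = 0.003245), and the remaining one gave 0.04 (adjusted p = 0.8761), with a mean of the 3 of -0.40 (adjusted p = 0.006976). PSMC6 was lower by -0.33 ± 0.08 (adjusted p = 0.006565), a call that ended without a trend (adjusted p = 0.08165). PSMA5, PSMD14, PSMD2, PSMD3, PSMB3 and PSMD10 were higher by 0.39 to 0.42 as deposited and not called with equal medians, where they were higher by 0.18 to 0.21. PSMD3 was also not called without EGF replicate 3 (0.34, adjusted p = 0.05031), PSMD9 without ERBB2 replicate 3 (0.30, adjusted p = 0.05045), PSMA1 without EGF replicate 1 (0.20, adjusted p = 0.06467), PSMD6 without EGF replicate 3 or ERBB2 replicate 3 (adjusted p up to 0.08094), and PSMC1 without EGF replicate 1 or 2 or ERBB2 replicate 1 or 3 (adjusted p up to 0.1236).

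**Figure D5:**
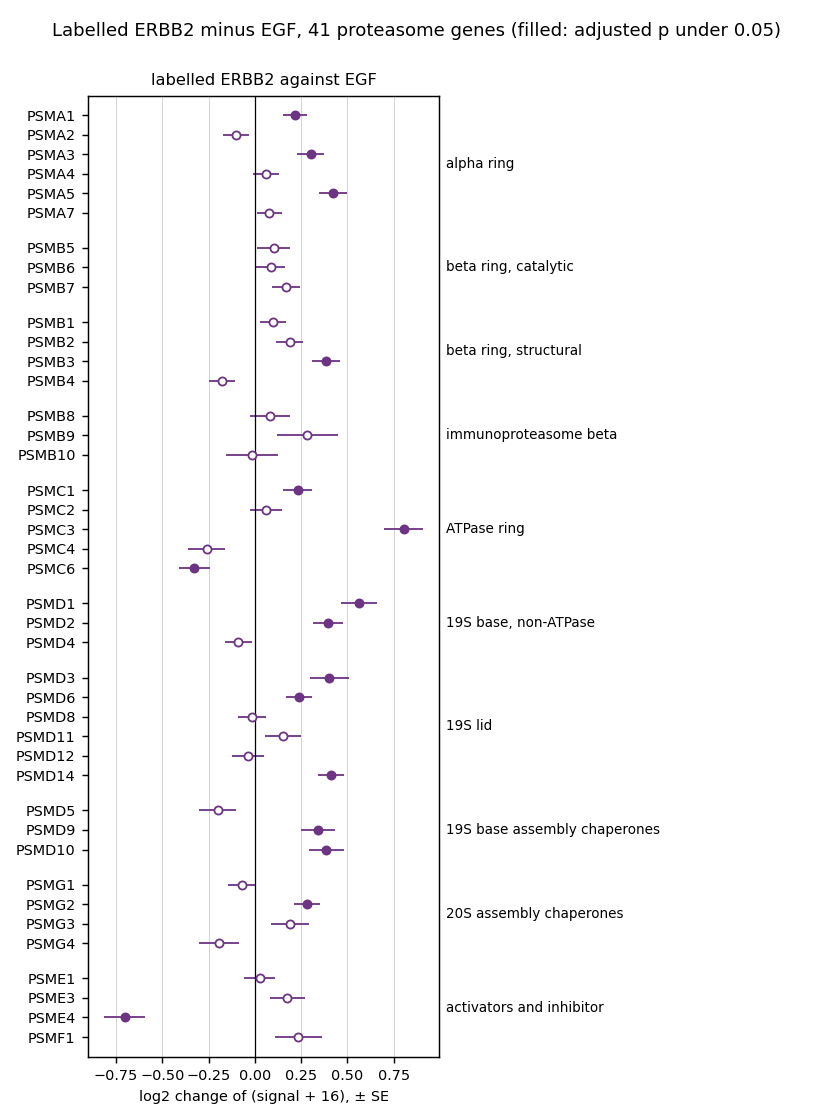
Log2 difference between arrays labelled ERBB2 and EGF arrays for the 41 proteasome genes tested, as deposited, with SE bars from limma, n = 3 arrays a group, filled where the adjusted p was under 0.05. PSMC3 lies farthest right and PSME4 farthest left, and 14 filled points lie right of 0, which become 2 with equal array medians.

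Other genes of the pathway were taken from lists, whose counts stand beside shares among genes with a signal of 256 or more of 35.3% higher and 35.1% lower in arrays labelled ERBB2 and 33.8% and 26.5% with EGF. Of 11 further components and assembly factors of the proteasome, 6 were called higher and 1 lower in arrays labelled ERBB2 and 6 and 0 with EGF, with medians of 0.36 and 0.21. UCHL5, a deubiquitinase of the cap, averaged 667 ± 32.6 in arrays labelled ERBB2, 568 ± 42.6 with EGF and 294 ± 11.9 in vector arrays (SD, n = 3 each), with log2 changes of 1.14 and 0.92. In the same order of comparisons ADRM1, the ubiquitin receptor that holds UCHL5, changed by 0.93 and 0.69, and PITHD1 by 0.67 and 0.33. Of 11 tested regulators of proteasome gene transcription, 1 was called higher and 4 lower in arrays labelled ERBB2, and 4 and 5 with EGF. The lower count in arrays labelled ERBB2 and the higher count with EGF lie near those shares, though several of these regulators had signals under 256. Over all genes tested, 25.1% were called lower in arrays labelled ERBB2 and 17.2% higher with EGF. NFE2L1, which raises proteasome genes when proteasome activity falls short, averaged 533 ± 75.3, 545 ± 61.3 and 2452 ± 67.2 in arrays labelled ERBB2, EGF arrays and vector arrays, with changes of -2.18 (adjusted p = 1.717e-12) and -2.14 (adjusted p = 7.386e-12). NFYA, a subunit of the CCAAT-binding factor NF-Y, changed by 1.05 and 0.75, and NFYB, its partner, had log2 changes of -0.18 (adjusted p = 0.2732) and -1.07 (adjusted p = 1.169e-06). NFYC, another NF-Y subunit, and NFE2L2 were named after their values were seen. NFYC had log2 changes of -0.19 (not called) and -0.47 (adjusted p = 0.01842), and NFE2L2 of -0.94 and -0.46.

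Of 3 tested genes for ubiquitin and its activating enzymes, UBB averaged 8175 ± 245 in arrays labelled ERBB2, 5767 ± 223 with EGF and 10060 ± 657 in vector arrays and was called lower in both comparisons with vector (-0.30 and -0.80). UBA6, a ubiquitin-activating enzyme, was called higher in both (0.29 and 0.61), and UBA1 was not called. Of 9 tested shuttle factors and partners of the unfoldase VCP, 4 were called higher and 3 lower in arrays labelled ERBB2, near the shares over genes of such signal, and 1 and 0 with EGF. FAF2 had log2 changes of -0.43 and -0.18 (not called), UFD1 of 0.34 and 0.17 (not called), and UBQLN1 of 0.28 and 0.32.

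For members with several probe sets, the others were read one by one, an alternative added after the data were seen. In arrays labelled ERBB2 against vector, 17 called members had 27 other tested probe sets, of which 24 had the sign of the brightest, 14 were called the same way and 1, the dim PSMB4 probe set, was called the opposite way. With EGF, 12 called members had 19 others, 15 with the same sign, 13 called the same way and 1, that of PSMA3, opposite. Between arrays labelled ERBB2 and EGF arrays, 9 called members had 12 others, 10 with the same sign, 5 called the same way and none opposite. Some members not called in that comparison had another probe set that was called. It was lower for PSMA7 (-0.54, adjusted p = 7.762e-05) and PSMF1 (-0.535, adjusted p = 0.0008882). Those of PSMB4, PSMC2, PSMD11 and PSME3 were called higher, by 0.367 to 0.895. The probe sets that represent PSMA1, PSMA7 and PSME3 are of the kind that Affymetrix marks as open to cross-hybridisation. So are those read for NFE2L1, NFYC, HLA-E and DCN, and no other probe set of these list genes was read here.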

How the data were processed

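RNA of MCF10A cells was measured on 9 one-colour Affymetrix arrays, 3 each labelled ERBB2, EGF and vector, grouped by the sample titles. The deposited values are linear signal intensities, made by the authors with MAS5, per the submitters' processing notes, whose version is not given in the sources used here. Each array's mean, without 2% of probe sets at each end, was 100. Such scaling takes up part of any change that most genes share. No detection calls entered the results. Median signals were 17.9 to 20.1 in arrays labelled ERBB2, 15.6 to 16.9 in EGF arrays and 19.9 to 20.2 in vector arrays, and the number of arrays limits the precision.

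Of 54675 probe sets, the platform annotation named 1 gene for 41097, several for 1801 and none for 11777. A probe set naming several genes was tested and not named, among them 5 that join a PSM symbol to another gene. Values were taken as log2(signal + 16), so changes of dim genes are understated. After removal of 62 controls, the 40th percentile of the mean log2 value (10.6 signal units) was the lower limit, which left 32768 probe sets and 13723 genes. PSMG3-AS1 lay under that level in the EGF group and passed on its mean. A single limma 3.58.1 fit under R 4.3.3 (lmFit, then eBayes with a trend) on the 3 group means of the 9 arrays, leaving 6 residual degrees of freedom, gave every comparison. A call is an adjusted p-value (Benjamini-Hochberg) under 0.05. The code was tested on simulated data. For 3 against 3 arrays the smallest exact two-sided permutation p is 0.1.

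The members, the lists and the tests were chosen with earlier results of these data known. Values per array are given for the 2 members of each role with the largest called change in each comparison and for members called in opposite directions against vector, 30 in all, and from each list at most 3 called genes by size. Correlations of log2 values between arrays were 0.968 to 0.981 within groups and 0.932 to 0.963 across groups. Deviations of arrays with the same replicate number correlated between -0.03 and 0.02, so the numbers were not taken to pair the arrays. The alternatives were equal array medians, quantile normalization, pseudocounts of 1 and 64, a limit at the 60th percentile or none, eBayes without a trend, array weights, the replicate number as a block, only the groups compared, the mean of a gene's probe sets, and leaving out each of the 9 arrays.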

Additional observations from a re-analysis of the deposited data

How the results depend on the processing

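Of 33 members called in arrays labelled ERBB2 against vector, 22 were called the same way under each of 20 alternatives and 11 were lost under at least 1. Of 26 called with EGF, 15 kept their call and 11 did not, and of 19 called between arrays labelled ERBB2 and EGF arrays, 4 did and 15 did not. Of the members not called, 3 of 14, 13 of 21 and 11 of 28 were called under at least 1 alternative in these comparisons. The median of the 47 members in arrays labelled ERBB2 against vector was 0.35, and 0.31 with a pseudocount of 64, 0.43 with equal array medians and 0.18 with each gene's probe sets averaged. Its 8 lower calls were 4 with equal array medians, 5 without a trend and 5 with averaged probe sets. With EGF, equal array medians gave 30 higher calls, 3 lower calls and a median of 0.39, against 18, 8 and 0.09 as deposited, and no trend gave 5 lower calls. Between arrays labelled ERBB2 and EGF arrays, equal array medians gave 4 higher calls, 10 lower calls and a median of -0.057, against 16, 3 and 0.15, and no trend gave 10 higher calls. Quantile normalization gave 15, 6 and 0.09 with EGF, and 17, 3 and 0.16 between arrays labelled ERBB2 and EGF arrays. Equal array medians reversed PSMB4 with EGF (0.067), and averaged probe sets reversed PSMB4 in arrays labelled ERBB2 (0.036) and PSMA3 with EGF (-0.24). That average weights dim probe sets as much as bright ones. The cause of the other shifts was not tested. Leaving out each array gave 4 to 8 lower calls and medians of 0.28 to 0.36 for arrays labelled ERBB2 against vector, 4 to 8 lower calls for EGF against vector, and 3 to 5 lower calls and medians of 0.11 to 0.19 for arrays labelled ERBB2 against EGF arrays. With the replicate block the higher and lower calls were 24 and 6, 18 and 8, and 16 and 3 in these comparisons, and the numbers do not pair the arrays. The share of signals under 16 was 44.2% to 50.6% per array, and low signals limit what can be said of PSMA8, PSMB9 and the transcripts named for a neighbour.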

Other observations

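Of the 6 tested members that match by symbol only, 2 were called higher and 3 lower in arrays labelled ERBB2 against vector, and 0 and 3 with EGF, where 1 of the 3 is PSMG3-AS1. Over all genes tested the shares were 20.8% higher and 25.1% lower in arrays labelled ERBB2, and 17.2% and 19% with EGF. Counts from 6 genes are too small to be set apart from these shares. PSMC3IP, a meiotic recombination cofactor also known as HOP2, read 106, 90.5 and 87.9 in arrays labelled ERBB2, 42.7, 38.4 and 25.7 with EGF and 25.0, 24.0 and 39.2 in vector arrays. Its level in arrays labelled ERBB2 lay above both other groups (log2 change 1.3 ± 0.20, limma adjusted p = 3.294e-05), which overlapped each other (0.19, adjusted p = 0.5537). PSMB8-AS1 read 29.2, 24.1 and 35.0 in arrays labelled ERBB2, 17.96, 26.7 and 20.9 with EGF and 51.5, 47.4 and 51.9 in vector arrays, which were highest (-0.55, adjusted p = 0.04412, and -0.81, adjusted p = 0.005971). The first of these calls ended without ERBB2 replicate 1 or 2, EGF replicate 2 or 3 or any vector array (adjusted p up to 0.136). PSMD6-AS2 read 37.6, 27.0 and 61.1 in arrays labelled ERBB2, 42.2, 28.6 and 44.6 with EGF and 71.8, 60.05 and 81.6 in vector arrays (-0.62 and -0.68), with calls that ended without vector replicate 1 or 3, ERBB2 replicate 1 or 2, or EGF replicate 2 (adjusted p up to 0.1666). PSMG3-AS1 read 11.9, 28.3 and 29.6 in arrays labelled ERBB2, 3.78, 2.67 and 8.08 with EGF and 25.1, 33.6 and 18.7 in vector arrays. EGF arrays were lowest, with all 3 under the limit of 10.6 for testing, and the gene was tested only through its level in the other groups. Its fitted log2 difference between EGF and vector arrays depends on the pseudocount, at -2.27 with 1 and -0.38 with 64, and no size is read from it. The difference between arrays labelled ERBB2 and EGF arrays, also called, ranged from 0.34 to 2.06 over 19 alternatives. No size is read from that difference either. PSMA3-AS1 was lower in arrays labelled ERBB2 (-0.59, adjusted p = 0.002659, and -0.40, adjusted p = 0.05912, with averaged probe sets) and was not called with EGF (-0.01). PSME3IP1 was higher in arrays labelled ERBB2 (0.36, adjusted p = 0.0238), a call that ended without ERBB2 replicate 2 or vector replicate 1 (adjusted p up to 0.09302). Signals of a gene and its antisense partner are told apart on an array only as far as the probes match their strand, and probe positions were not used here.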
